A study of Homo sapiens with 16 samples.

Results

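The TAM receptor tyrosine kinases AXL, TYRO3 and MERTK and their ligands GAS6 and PROS1 were followed across parental, DMSO and Sorafenib-resistant hepatocellular carcinoma (HCC) cells. These 5 genes were taken by gene ID out of the 26258 genes of the deposited table. The set was chosen by the level of AXL in the resistant cells, so the values of the 5 genes in resistant against parental cells are given as a description, without a test. RNA-sequencing was done on 16 libraries, 2 for each of 8 groups, made from the HCC cell lines Huh7 and Hep3B. In each line there were parental cells, labelled as untreated, and cells named for DMSO, the solvent of Sorafenib, and also labelled as untreated. The IR cells had become resistant under increasing concentrations of Sorafenib, a multi-kinase inhibitor, and the CR cells under a constantly high concentration. The IR and CR libraries are labelled with Sorafenib at 7 µM, so that resistance and the presence of the drug cannot be told apart. The protocols in the labels describe the culture and drug of the Huh7 lines and leave out those of Hep3B. The methods of the study call the RNA extractions biological replicates, in a number other than the 2 per group analysed here, and the labels do not tie the libraries to cultures. The p-values therefore measure only the spread between these libraries, part of which may be technical. In bulk RNA, fewer cells that express a gene and less RNA of it per cell cannot be told apart.

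AXL, TYRO3 and MERTK are cell surface receptors with a tyrosine kinase domain inside the cell. They are activated by GAS6 and by protein S, the product of PROS1, which bridge the receptors to phosphatidylserine exposed on dying or stressed cells. GAS6 binds all members of the family, while protein S acts on TYRO3 and MERTK. Both ligands carry a Gla domain that becomes functional only after vitamin K-dependent carboxylation. In the liver, PROS1 is made by hepatocytes and MERTK is a receptor of macrophages in the clearance of dying cells, and AXL is known in carcinomas for its link to invasive, mesenchymal-like states and to tolerance of kinase inhibitors.

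The libraries held 46613302 to 76860251 reads over genes, and levels are given as CPM, read counts scaled to a common library total. Where a library has no read of a gene, up to 3 reads remain possible, a limit of 0.039 to 0.0644 CPM, and intervals and limits of this kind cover counting error only. Of the 5 genes, 4 had at least 1 CPM in at least 2 libraries and entered the fit of 15019 genes. AXL passed only through its level in the resistant cells, and GAS6 did not pass. Replicates of Huh7 DMSO and Huh7-IR cells stood further apart than the others, with an SD of the difference between replicates over all genes of 0.571 and 0.566 on the log2 scale against 0.236 to 0.31 in the other groups. The 10 hepatocyte markers, including ALB and HNF4A, summed to 7168 to 37485 CPM in parental and DMSO libraries and to 109 to 10328 CPM in resistant libraries. Of 8 macrophage markers, CD163, TYROBP and MARCO were at or near 0, with group means of at most 0.019 CPM, and the list summed to 6.9 to 34.7 CPM in parental and DMSO libraries and to 28.4 to 73.8 CPM in resistant libraries, where CD68, a lysosomal protein called higher in all 4 resistant lines, made up most of it. Of 6 endothelial markers, the sum was 0.236 to 6.36 CPM in all libraries. Of 7 fibroblast and stellate cell markers, the sum was 300.0 to 683 CPM in resistant and 284 to 481 CPM in other Huh7 libraries, and 37.2 to 90.1 against 23.8 to 38.9 CPM in Hep3B libraries. Of the 6 of these that were tested, 4 were called higher and 1 lower in each resistant Huh7 line, 2 higher and 1 lower in Hep3B-IR, and 1 higher and 0 lower in Hep3B-CR. COL1A1, a collagen chain, was higher in all 4, LUM, lumican, was lower in both Huh7 lines, and PDGFRB was lower in Hep3B-IR.

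In GRCh37, with GENCODE annotation, AXL lies on chromosome 19 from 41725128 to 41767671 on the forward strand, TYRO3 on chromosome 15 from 41849873 to 41875787 on the forward strand and MERTK on chromosome 2 from 112656184 to 112787138 on the forward strand. GAS6 lies on chromosome 13 from 114523522 to 114567049 and PROS1 on chromosome 3 from 93591895 to 93698847, both on the reverse strand. The 250 bases before the RefSeq start of the 3 receptor genes are printed, because these are the members whose levels differed most between the groups (AXL and MERTK) and least (TYRO3). They were read from RefSeq's promoter table and lie at chr19:41724878-41725127, chr15:41851160-41851409 and chr2:112655934-112656183 of GRCh37, where they overlap no annotated exon. AXL and TYRO3 have 2 RefSeq starts each, of which the most upstream was used. The TYRO3 window lies inside the gene as GENCODE annotates it, since that gene starts further upstream, at 41849873. Capitals mark matches, on either strand, to the letters GGGCGG, a GC box, and TGANTCA. The latter is a loose form of the AP-1 motif, in which N stands for any base.
AXL: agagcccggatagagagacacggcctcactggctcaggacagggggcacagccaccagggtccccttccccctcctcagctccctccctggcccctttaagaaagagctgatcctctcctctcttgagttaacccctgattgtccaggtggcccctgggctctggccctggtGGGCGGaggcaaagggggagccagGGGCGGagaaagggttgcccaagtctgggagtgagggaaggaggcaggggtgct
TYRO3: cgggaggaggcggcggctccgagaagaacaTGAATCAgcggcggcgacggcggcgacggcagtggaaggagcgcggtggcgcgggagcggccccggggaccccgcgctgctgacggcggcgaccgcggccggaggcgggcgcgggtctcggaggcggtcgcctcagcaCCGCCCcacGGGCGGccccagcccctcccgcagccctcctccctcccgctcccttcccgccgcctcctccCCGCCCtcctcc
MERTK: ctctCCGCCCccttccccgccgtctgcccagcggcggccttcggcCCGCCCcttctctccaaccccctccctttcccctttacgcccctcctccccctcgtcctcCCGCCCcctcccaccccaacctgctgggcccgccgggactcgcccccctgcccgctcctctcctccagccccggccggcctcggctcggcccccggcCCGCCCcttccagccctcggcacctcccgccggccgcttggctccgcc
GGGCGG was found 2 times in the AXL window, 3 times in the TYRO3 window and 4 times in the MERTK window, and in 42.5% of 34943 promoter windows of the same length. TGANTCA was found 1 time, as TGAATCA in the TYRO3 window, and in 6.59% of all windows. The letters ACGTG and GCGTG, cores of hypoxia response elements, and GGAATG, the TEAD motif, were in none of these 3 windows, and in 18.5%, 32.2% and 11.9% of all windows. These matches say which letters the windows hold and nothing about binding. The windows had 64.4% (AXL), 80.0% (TYRO3) and 78.8% (MERTK) G and C.

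AXL was close to undetected in parental cells and high in each resistant line. In the closest case the resistant mean was 103 times the parental mean. In Huh7 parental cells it had 4 and 2 reads, 0.0582 and 0.0268 CPM. Huh7-IR libraries had 214 and 190.0 CPM, and Huh7-CR libraries had 208 and 139 CPM. In Hep3B parental cells AXL had 61 and 54 reads, 0.821 and 0.76 CPM, while Hep3B-IR libraries had 118 and 45.1 CPM and Hep3B-CR libraries 163 and 115 CPM. Each of the 8 resistant libraries was above each of the 8 other libraries, and the lowest of them, the 2nd library of Hep3B-IR, was still far from the highest of the others. Over all genes, 5.28% were called higher than in parental cells in all 4 resistant lines. That share rests on the adjusted p and the fold, and the share of genes whose libraries separate like this is not given here. AXL was chosen by its level in the resistant cells, so its separation is a description. The mean ± SD was 202 ± 16.7 CPM in Huh7-IR, 174 ± 48.5 CPM in Huh7-CR, 139 ± 34.1 CPM in Hep3B-CR and 81.8 ± 51.9 CPM in Hep3B-IR cells (n = 2 each). These 4 groups overlapped with their neighbours in the order of levels, so their order is not settled by the replicates.

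The ratio of AXL levels from reads pooled over both libraries was 4859 for Huh7-IR against Huh7 parental cells, with an exact 95% interval of 2232 to 13243, and 4084 (1876 to 11131) for Huh7-CR cells. The wide intervals came from the 6 reads of the parental cells. In Hep3B the ratio was 105 (87.2 to 127) for IR and 181 (151 to 220) for CR cells. These intervals hold counting error only and leave out the spread between libraries. On the scale of log2(CPM + 1), which understates the difference of genes near 0, AXL was higher than in parental cells by 7.60 (IR) and 7.36 (CR) for Huh7 and by 5.37 (IR) and 6.27 (CR) for Hep3B (SE 0.37 each). Against DMSO cells the same differences were 7.29, 7.05, 5.70 and 6.60.

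**Figure D1:**
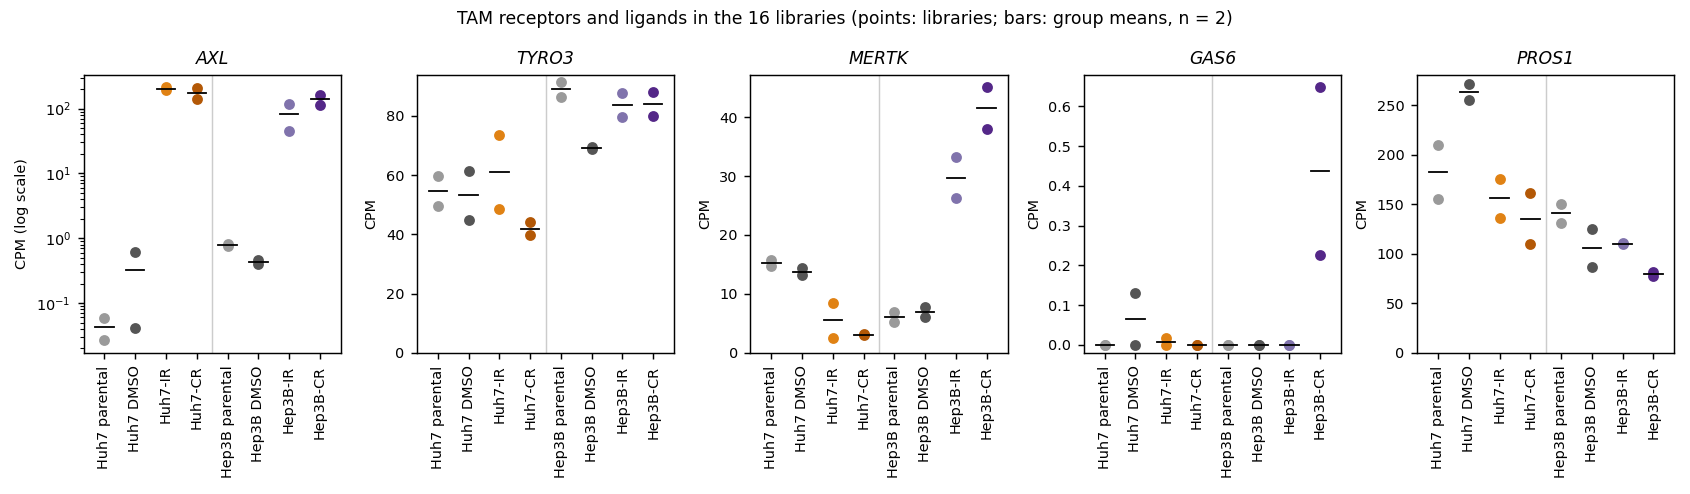
Levels of AXL, TYRO3, MERTK, GAS6 and PROS1 in CPM (vertical axes; logarithmic for AXL, linear for the others) by group, with 1 point per library and a bar at the mean of 2 libraries. AXL lies between 45.1 and 214 CPM in the resistant libraries and at or below 0.821 CPM in all others, and MERTK is lower in resistant Huh7 and higher in resistant Hep3B cells than in the parental cells of the same line.

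TYRO3, the receptor with the most even level, was detected in all libraries at 39.8 to 91.4 CPM, a range of 2.29-fold. In Huh7 the libraries had 59.6 and 49.7 CPM in parental, 44.9 and 61.5 CPM in DMSO, 73.6 and 48.7 CPM in IR and 44.1 and 39.8 CPM in CR cells. In Hep3B they had 91.4 and 86.5 CPM in parental, 68.9 and 69.5 CPM in DMSO, 79.7 and 87.6 CPM in IR and 79.9 and 88.1 CPM in CR cells. The parental and IR groups overlapped in both lines, CR overlapped parental cells in Hep3B, and CR lay below parental cells in Huh7. How many of all genes separate by library like this is not given here. The log2 difference from parental cells was 0.14 (IR) and -0.37 (CR) for Huh7 and -0.09 (IR) and -0.08 (CR) for Hep3B (SE 0.19 each). Against DMSO cells the values for Hep3B changed sign, to 0.27 (IR) and 0.28 (CR), and those for Huh7 were 0.18 and -0.32. The median of all genes was 0.19 in the Huh7-IR and 0.11 in the Hep3B-CR comparison, so relative to it TYRO3 was at -0.06 in Huh7-IR and -0.19 in Hep3B-CR, and with TMM factors TYRO3 in Huh7-IR was at -0.06. Of the 75-base stretches of TYRO3 transcripts, 0.553% also occur in the pseudogene TYRO3P, and only uniquely mapped reads were counted.

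MERTK was lower in resistant than in parental Huh7 cells and higher in resistant than in parental Hep3B cells. Huh7 parental libraries had 15.8 and 14.7 CPM and Huh7 DMSO libraries 13.2 and 14.3 CPM, while Huh7-IR libraries had 8.47 and 2.51 CPM and Huh7-CR libraries 3.15 and 2.96 CPM. Hep3B parental libraries had 6.96 and 5.30 CPM and Hep3B DMSO libraries 6.10 and 7.84 CPM, while Hep3B-IR libraries had 33.1 and 26.3 CPM and Hep3B-CR libraries 37.9 and 45.1 CPM. Every resistant Huh7 library was below every other Huh7 library, and every resistant Hep3B library was above every other Hep3B library. Over all genes, 17.8% and 13.6% were called lower than in parental cells in Huh7-IR and Huh7-CR. In Hep3B-IR and Hep3B-CR, 15.7% and 20% were called higher. The share of all genes whose libraries separate in this way is not given here. The mean MERTK level was 2.78 times higher in Huh7 parental than in Huh7-IR cells and 4.99 times higher than in Huh7-CR cells. It was 4.85 times higher in Hep3B-IR and 6.77 times higher in Hep3B-CR than in Hep3B parental cells. On the log2 scale the differences were -1.49 (IR) and -2.0 (CR) for Huh7 and 2.11 (IR) and 2.58 (CR) for Hep3B (SE 0.35 each). The Huh7-IR value rests on libraries that stood far apart, and it was -2.21 without the 1st and -0.78 without the 2nd of them. All 4 directions held with every scaling tried. PTPRC, the pan-leukocyte antigen, moved with MERTK in Huh7, at a mean of 1.00 CPM in parental, 1.27 in DMSO, 0.0546 in IR and 0.239 CPM in CR cells. In Hep3B, PTPRC was at 0.0618 to 0.0765 CPM in every group. Of the 4 macrophage markers tested, 1 was called higher and 2 lower in Huh7-IR, 2 higher and 1 lower in Huh7-CR, and 1 higher and 0 lower in each resistant Hep3B line. CSF1R had means of 0.00703 CPM in parental, 0.344 in IR and 0.956 CPM in CR cells of Hep3B and did not enter the fit. CD68 was higher in the resistant cells of both lines, from 4.03 to 59.5 (IR) and 47.0 CPM (CR) in Huh7, where MERTK was lower, and from 8.90 to 44.1 (IR) and 33.1 CPM (CR) in Hep3B, where it was higher. The part of these markers in the result was not tested.

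Levels of different genes were compared per kilobase of annotated exon. The sum of the 3 receptors was 10.1 ± 0.976 CPM per kb in Huh7 parental and 11.7 ± 0.702 in Hep3B parental cells. It was 49.7 ± 6.49 (IR) and 41.2 ± 10.3 (CR) for resistant Huh7 and 33.8 ± 11.3 (IR) and 48.7 ± 5.02 CPM per kb (CR) for resistant Hep3B cells (SD, n = 2). TYRO3 made up 60.8% of the sum in Huh7 parental and 85.2% in Hep3B parental cells, MERTK 39.1% and 13.4%, and AXL 0.0846% and 1.38%. In the resistant cells AXL made up 83.6 ± 4.03% (IR) and 86.3 ± 2.53% (CR) of the sum for Huh7 and 46.9 ± 15.8% (IR) and 58.2 ± 8.35% (CR) for Hep3B. The MERTK share was 2.73% (IR) and 1.97% (CR) for Huh7 and 23.3% (IR) and 22.2% (CR) for Hep3B. The order of receptors in Hep3B-IR cells was not settled, since TYRO3 had 38.1% and AXL 35.7% in the 2nd library. It also turned with the length used, since TYRO3 has 8.887 kb of annotated exons and the lengths of the RefSeq exons that the authors counted over were not used here. Per kilobase of coding sequence, a choice made after seeing the data, TYRO3 made up 45.6% and AXL 40.4% in Hep3B-IR, and AXL remained the most abundant receptor by mean in the other 3 resistant lines.

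**Figure D2:**
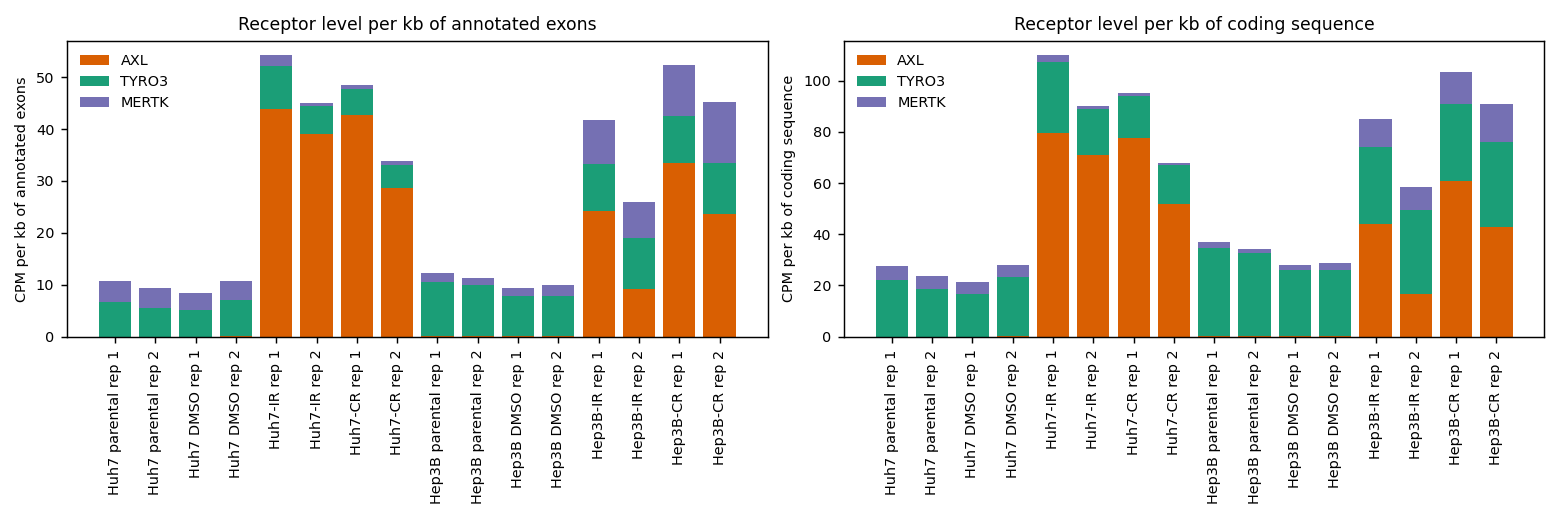
Stacked levels of AXL, TYRO3 and MERTK in each of the 16 libraries, in CPM per kb of annotated exons (left) and per kb of coding sequence (right). The sum per kb of exons is 8.46 to 12.3 in parental and DMSO libraries and 25.9 to 54.3 in resistant libraries, where, per kb of exons, AXL is the largest part except in the 2nd library of Hep3B-IR.

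GAS6, the ligand of AXL, was nearly absent from these cells. It had 0 reads in 12 of the 16 libraries and 61 reads in all. The Hep3B-CR libraries had 17 and 34 reads, 0.225 and 0.647 CPM, and no other Hep3B library had any. Their mean was 0.436 ± 0.299 CPM (SD, n = 2). It was 10.6 times the 3 reads per library that a count of 0 allows in Hep3B parental cells. That value leaves out the spread between the 2 Hep3B-CR libraries. The 2nd library of Huh7 DMSO had 9 reads of GAS6 and the 1st library of Huh7-IR had 1. The gene is overlapped on the other strand by GAS6-AS1, which had 75 reads in the 2nd library of Huh7 DMSO and 2 and 1 reads in the Hep3B-CR libraries. Whether strand was used in the counting is not given in the sources used here, so reads of the overlapping genes in Huh7 DMSO cannot be told apart.

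PROS1 was the abundant ligand. Huh7 libraries had 155 and 210.4 CPM in parental, 256 and 271 CPM in DMSO, 136 and 176 CPM in IR and 110 and 161 CPM in CR cells. Hep3B libraries had 131 and 151 CPM in parental, 125 and 87.0 CPM in DMSO, 110 and 111 CPM in IR and 82.0 and 77.5 CPM in CR cells. In Huh7 the resistant and parental libraries overlapped, and in Hep3B the resistant libraries lay below both parental libraries. Over all genes, 11.4% and 12.3% were called lower than in parental cells in Hep3B-IR and Hep3B-CR. Those shares rest on the adjusted p and the fold, and how many genes separate by library in this way is not given here. The log2 difference from parental cells was -0.22 (IR) and -0.44 (CR) for Huh7 and -0.35 (IR) and -0.81 (CR) for Hep3B (SE 0.22 each). Against DMSO cells it was -0.76 (IR) and -0.98 (CR) for Huh7 and 0.08 (IR) and -0.38 (CR) for Hep3B. The value for Hep3B-IR thus turned with the choice of control. Per kilobase of exon, PROS1 was at 19.7 to 68.9 CPM over the libraries, 4.67 times the receptor sum in Huh7 parental cells and 3.06 times in Hep3B parental cells. In the resistant groups, where the receptor sum was higher, it was 0.417 to 0.892 times that sum. Of the 75-base stretches of PROS1 transcripts, 3.12% also occur in the pseudogene PROS2P.

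**Figure D3:**
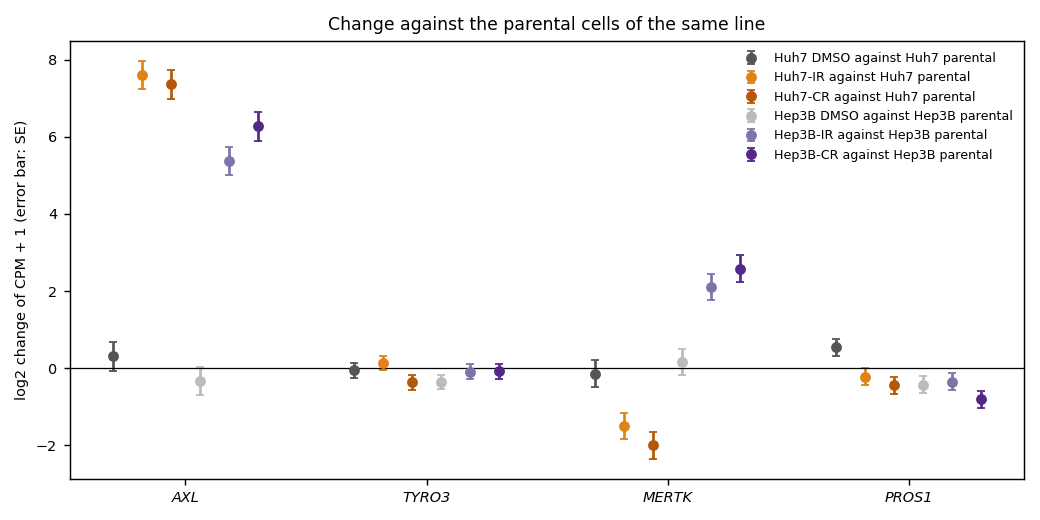
Difference in log2(CPM + 1) from the parental cells of the same line (vertical axis, error bars SE of the fit) for AXL, TYRO3, MERTK and PROS1 in DMSO, IR and CR cells. AXL is 5.37 to 7.60 higher in the 4 resistant lines, and at 0.31 and -0.33 with DMSO on this scale, which compresses levels under 1 CPM, and MERTK has negative values in resistant Huh7 and positive values in resistant Hep3B cells.

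The DMSO cells ask what the solvent arm does without Sorafenib. TYRO3, MERTK and PROS1 did not pass the test against parental cells in either line, where a call needed a Benjamini-Hochberg adjusted p under 0.05 in limma and a log2 difference of at least 0.58. Over all genes, 3.46% were called higher and 1.37% lower in Huh7 DMSO cells, and 1.07% higher and 0.513% lower in Hep3B DMSO cells. Those splits, 520 to 206 and 160 to 77 genes, were 374 to 290 and 146 to 135 with quantile normalization, and 36 to 41 for Hep3B in edgeR. AXL had 3 and 42 reads in the Huh7 DMSO libraries, 0.0414 and 0.603 CPM, and 0.455 and 0.398 CPM in the Hep3B DMSO libraries. The pooled ratio of AXL in Huh7 DMSO against parental cells was 7.57, with an exact 95% interval for counting error of 3.22 to 21.7. It rests on the 2nd DMSO library, without which the difference on log2(CPM + 1) was -0.0014. On the counts edgeR gave a log2 difference of 2.82 (adjusted p = 0.144) and DESeq2 2.86 (adjusted p = 0.0376), so that the call depends on the tool. In Hep3B the values were -0.90 in edgeR (adjusted p = 0.522) and -0.91 in DESeq2 (adjusted p = 0.593). On log2(CPM + 1) the differences were 0.31 in Huh7 (limma adjusted p = 0.642) and -0.33 in Hep3B (limma adjusted p = 0.71). That scale compresses levels under 1 CPM, so these values do not settle the comparison. AXL entered the fit only through the resistant cells, so its p-values with DMSO are given as a description. FRMD5, the gene most like AXL in its pattern, had 0.0138 and 0.101 CPM in the 2 Huh7 DMSO libraries. In the Huh7 parental libraries it had 0.0728 and 0 CPM. It was picked by its likeness to AXL over all libraries, these included, so it is no separate support for the AXL values. PROS1 differed by 0.54 in Huh7 DMSO (0.07 to 1.01, limma adjusted p = 0.15) and by -0.43 in Hep3B DMSO cells (-0.90 to 0.05, adjusted p = 0.374). The difference between these differences was -0.97 (-1.64 to -0.30, limma adjusted p = 0.202), which did not pass. For TYRO3 the intervals were -0.47 to 0.37 in Huh7 and -0.78 to 0.06 in Hep3B, and for MERTK -0.89 to 0.62 and -0.59 to 0.92.

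The IR and CR cells of a line differ in the way of selection. They were also derived separately, so that the regimen and the separate derivation cannot be told apart. No member in the fit passed in Huh7-IR against Huh7-CR cells, where 8.23% of all genes were called higher and 5.43% lower, or in Hep3B-IR against Hep3B-CR cells, where 5.33% were called higher and 6.41% lower. The Huh7 split of 1236 higher to 815 lower was 911 to 1036 with TMM factors, 967 to 1077 with quantile normalization, 823 to 909 in edgeR and 1151 to 1317 in DESeq2. AXL differed by 0.24 in Huh7 (-0.57 to 1.05, limma adjusted p = 0.697) and by -0.89 in Hep3B (-1.70 to -0.09, adjusted p = 0.131). Without the 1st library of Hep3B-IR the latter was -1.58. AXL was chosen by its level in the resistant cells and entered the fit only through them, so its p-values here are given as a description. TYRO3 differed by 0.50 in Huh7 (0.09 to 0.92, adjusted p = 0.0905 in limma) and by -0.01 in Hep3B (-0.42 to 0.41). MERTK differed by 0.51 in Huh7 (-0.25 to 1.26) and by -0.47 in Hep3B (-1.23 to 0.28). In Huh7, TYRO3 was at 0.80 and MERTK at 1.22 without the 2nd library of Huh7-IR, and MERTK was at -0.21 without the 1st. PROS1 differed by 0.22 (-0.26 to 0.69) in Huh7 and 0.46 (-0.01 to 0.93) in Hep3B. The difference between the lines in the IR against CR comparison did not pass for any member, with AXL at -1.14 (-2.28 to 0.00) and MERTK at -0.98 (-2.05 to 0.09).

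The parental cells of the lines differed in their receptors before any drug. TYRO3 was 1.63 times higher in Hep3B than in Huh7 parental cells, a log2 difference of 0.70 ± 0.19 (SE, limma adjusted p = 0.00923). MERTK was 2.49 times higher in Huh7 than in Hep3B parental cells, a log2 difference of -1.20 ± 0.35 (Hep3B minus Huh7, limma adjusted p = 0.0121). Over all genes, 23.7% were called higher and 18.9% lower in Hep3B. Both calls were lost without some libraries. TYRO3 was at 0.57 without the 2nd Huh7 library (limma adjusted p = 0.0793) and 0.66 without the 1st Hep3B library (0.0554), and MERTK was at -1.15 without the 1st Huh7 library (0.0599) and -1.03 without the 2nd Hep3B library (0.084). AXL had 115 reads in Hep3B and 6 in Huh7 parental cells, a pooled ratio of 18.9 (exact 95% interval 8.42 to 52.6). The count tests, which were alternatives here, gave a log2 difference of 4.09 (adjusted p = 0.00494) in edgeR and 4.16 (adjusted p = 0.000108) in DESeq2. AXL entered the fit only through the resistant cells, so its p-values between the parental lines are given as a description. On log2(CPM + 1), where levels under 1 CPM are compressed, the difference was 0.78 (limma adjusted p = 0.0996), which does not settle the comparison. PROS1 differed by -0.36 (-0.83 to 0.11, limma adjusted p = 0.188).

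The genes around the receptors were taken in 8 lists of 86 genes, of which 78 were in the fit. They were tested in the same model over all genes. The lists were chosen with earlier results of these data known, and most genes are named for their calls. Their p-values in resistant against parental cells therefore describe the fit and are not independent support. In Huh7-IR cells 25 were called higher and 16 lower than in parental cells, 32.1% and 20.5%, against 31.1% and 17.8% of all genes. In Huh7-CR cells 14 (17.9%) were higher and 10 (12.8%) lower, against 20.9% and 13.6% of all genes. In Hep3B-IR cells 14 (17.9%) were higher and 11 (14.1%) lower, against 15.7% and 11.4%, and in Hep3B-CR cells 17 (21.8%) were higher and 8 (10.3%) lower, against 20% and 12.3%. The pathway genes were thus called about as often as genes at large. The split of all genes moved with the scaling. In Huh7-IR it was 4666 higher and 2670 lower, against 3840 and 3430 with TMM factors, 3529 and 3563 with quantile normalization and 4183 and 3663 in DESeq2. Quantile normalization gave 2521 and 2595 in place of 3141 and 2040 for Huh7-CR, 1925 and 2108 in place of 2353 and 1710 for Hep3B-IR, and 2311 and 2384 in place of 2997 and 1843 for Hep3B-CR. The 2 comparisons within a line share the parental libraries, and 7 genes were called in the same direction in all 4 resistant lines. Of the 78, 6 (7.69%) were higher in each and 1 (1.28%) lower in each, against 5.28% and 2.88% of all genes.

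In receptor-proximal signaling, 19 of 20 genes were tested and 8, 4, 3 and 3 were called higher and 4, 1, 2 and 0 lower, where 4 values given together stand for IR and CR of Huh7 and then IR and CR of Hep3B. SRC, a kinase that works next to activated receptors, rose in all 4, from 17.6 ± 5.40 CPM in Huh7 parental to 69.8 ± 20.9 CPM in Huh7-IR and 51.1 ± 9.23 CPM in Huh7-CR cells. In Hep3B it rose from 23.5 ± 0.0494 CPM to 62.8 ± 13.8 CPM in IR and 61.4 ± 1.80 CPM in CR cells (SD, n = 2), with log2 differences of 1.92, 1.5, 1.37 and 1.35 and adjusted p values in limma of 6.05e-05, 0.000657, 0.00168 and 0.00156. SOCS3, an inhibitor of cytokine signaling that TAM receptors are known to induce, rose by 2.38, 2.29, 1.13 and 1.41, and its Hep3B calls were fragile, with 11 of 15 alternatives losing the call in Hep3B-IR and 3 of 15 in Hep3B-CR. The list's median was 0.26, 0.27, 0.01 and 0.19, against 0.19, 0.07, 0.06 and 0.11 over all genes.

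Among 15 factors reported to act on the AXL promoter, all were tested and 6, 4, 4 and 6 were called higher and 1, 0, 0 and 0 lower in the same order. FOSL2, an AP-1 subunit, rose from 6.07 ± 2.43 CPM in Huh7 parental cells to 83.1 ± 12.6 CPM in IR and 56.2 ± 11.2 CPM in CR cells. In Hep3B it rose from 4.27 ± 0.334 CPM to 16.5 ± 3.27 CPM in IR and 27.8 ± 1.78 CPM in CR cells. It rose by 3.61, 3.05, 1.72 and 2.45 on the log2 scale, and the adjusted p in limma was 7.55e-06, 4.79e-05, 0.00365 and 0.000312. WWTR1, the transcriptional coactivator TAZ, rose by 1.52, 1.04, 2.18 and 1.30 (limma adjusted p = 0.000477, 0.00846, 9.89e-05 and 0.00258), and in Huh7-CR 3 of 15 alternatives lost the call. HIF1A, named here after its values were seen because the study is about it, fell by 0.95 in Huh7-IR and rose by 0.87 in Hep3B-IR (limma adjusted p = 0.00278 and 0.00967), and had values of -0.50 in Huh7-CR and 0.49 in Hep3B-CR that did not pass. The list's median was 0.34, 0.20, 0.50 and 0.49.

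For receptor shedding and turnover, 4, 1, 1 and 3 of 8 genes were called higher and 1, 0, 3 and 2 lower, and none in the same direction in all 4 lines. The largest called change in Huh7-IR was that of CBLB, a ubiquitin ligase (1.04), and in Hep3B-CR that of PSENEN, a subunit of gamma-secretase (0.84). CBLB fell in both resistant Hep3B lines, with values of -0.66 and -0.59. The list's median was 0.57, 0.28, 0.04 and 0.17.

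The genes that make the ligands active or expose their lipid partner are in lists too short to compare with the shares of all genes. Over all genes, 31.1%, 20.9%, 15.7% and 20% were called higher and 17.8%, 13.6%, 11.4% and 12.3% lower. In the vitamin K cycle, 1, 0, 0 and 0 of 5 genes were called higher and 1, 2, 0 and 0 lower. AIFM2, a reductase of vitamin K and ubiquinone, fell by 0.77 in Huh7-IR and by 1.36 in Huh7-CR cells, and had values of 0.15 (IR) and 0.40 (CR) for Hep3B that did not pass. For phosphatidylserine exposure, 1 of 6 genes was called higher in each of the 4 lines and none lower. In Huh7-IR it was XKR8, a scramblase (1.11). In the other 3 lines it was ANO6, the calcium-activated scramblase, at 0.64 for Huh7-CR and at 0.97 (IR) and 0.70 (CR) for Hep3B. The medians of these lists lay between -0.25 and 0.29.

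The other Gla-domain proteins include coagulation factors made by hepatocytes. Of 9 tested, 5, 5, 1 and 2 were called lower, and none higher. Over all genes, 17.8%, 13.6%, 11.4% and 12.3% were called lower. The median was -1.48, -1.34, -0.20 and -0.22. F2, prothrombin, fell in all 4, from 24.1 ± 4.41 CPM in Huh7 parental cells to 0.495 ± 0.301 CPM in IR and 1.91 ± 0.908 CPM in CR cells. In Hep3B it fell from 48.6 ± 5.59 CPM to 3.60 ± 1.00 CPM in IR and 9.89 ± 4.79 CPM in CR cells, and the adjusted p in limma was 2.32e-06, 3.04e-05, 2.39e-05 and 0.000433. The hepatocyte markers moved with this list, 9, 8, 3 and 6 of 10 being called lower and 0, 0, 1 and 0 higher, and their part in the result was not tested. Of 5 tested partners of protein S, 1, 0, 1 and 0 were called higher and 1, 1, 2 and 3 lower. F5, coagulation factor V, had the largest called change for Huh7, at -4.56 (IR) and -3.13 (CR), and C4BPA, a chain of C4b-binding protein, for Hep3B, at -3.06 (IR) and -1.99 (CR). The list's median was -0.42, 0.30, -1.24 and -1.23. C4BPB, the chain that binds protein S, fell in both resistant Hep3B lines and was higher in DMSO than in parental cells, by 2.12 in Huh7 and 2.46 in Hep3B (limma adjusted p = 0.0175 and 0.0126).

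Among other phosphatidylserine receptors and bridges, 11 of 15 genes were tested, 4 were called higher in each resistant line, and 3, 1, 3 and 1 were called lower, with list medians of 0.14, 0.08, 0.21 and 0.66. ITGB3, the beta 3 integrin chain, rose from 0.223 ± 0.00666 CPM in Huh7 parental cells to 39.9 ± 27.3 CPM in IR and 18.1 ± 10.0 CPM in CR cells. In Hep3B it rose from 0.62 ± 0.0776 CPM to 4.92 ± 0.0543 CPM in IR and 10.6 ± 0.413 CPM in CR cells. MFGE8, which bridges phosphatidylserine to such integrins, rose from 2.59 ± 0.911 CPM to 50.9 ± 6.84 CPM in Huh7-IR and 7.89 ± 5.45 CPM in Huh7-CR, and from 4.76 ± 0.689 CPM to 30.6 ± 5.46 CPM in Hep3B-IR and 23.6 ± 5.95 CPM in Hep3B-CR cells. The Huh7-CR call of MFGE8 was lost in 7 of 15 alternatives, and against DMSO cells it did not pass (log2 difference 0.22, limma adjusted p = 0.686). The log2 differences were 4.88, 3.86, 1.87 and 2.84 for ITGB3 and 3.87, 1.18, 2.45 and 2.08 for MFGE8.

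**Figure D4:**
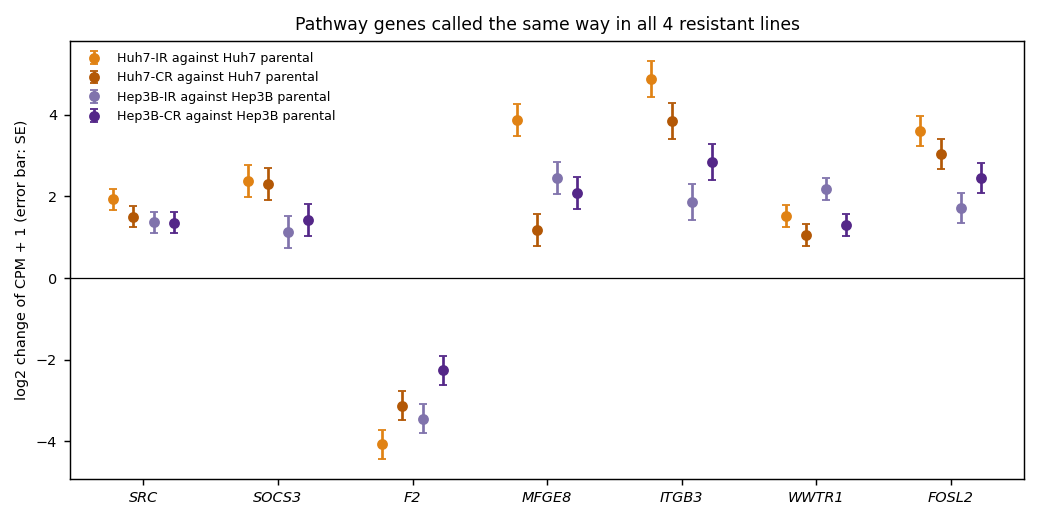
Log2 change against parental cells (vertical axis, error bars SE of the fit) of the 7 pathway genes called in the same direction in all 4 resistant lines. Only F2 lies below 0 among these 7, with values from -4.07 to -2.26.

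The 5 genes with the pattern most like AXL over the 16 libraries, by Pearson correlation of log2(CPM + 1), were FRMD5 (0.995), GPR176 (0.983), QPCT (0.983), NIBAN1 (0.98) and OLFML2A (0.977). The libraries fall into a resistant cluster and a cluster of parental and DMSO cells, so these values mostly carry that split. Within the 8 resistant libraries they were 0.959 for FRMD5, 0.48 for GPR176, 0.902 for QPCT, 0.703 for NIBAN1 and 0.834 for OLFML2A, and within the 8 others 0.713, 0.762, 0.421, -0.0145 and 0.384. FRMD5, which encodes a FERM domain protein, had 73.9 and 58.9 CPM (IR) and 74.3 and 56.2 CPM (CR) in resistant Huh7 and 33.1 and 11.5 CPM (IR) and 39.9 and 43.7 CPM (CR) in resistant Hep3B libraries, and at most 0.343 CPM in any other. Like AXL, it was lower in the 2nd than in the 1st library of Hep3B-IR. The genes most like TYRO3 were MCAM (0.942), MLF1 (0.933) and TUBA8 (0.92), those most like MERTK were STARD5 (0.945), CLGN (0.93) and FAM184B (0.923), and those most like PROS1 were MARCKS (0.912), BMP2 (0.891) and IPMK (0.884). AXL itself had correlations of -0.02 with TYRO3, 0.04 with MERTK and -0.46 with PROS1. The points share the groups and the lines, and no p is given.

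**Figure D5:**
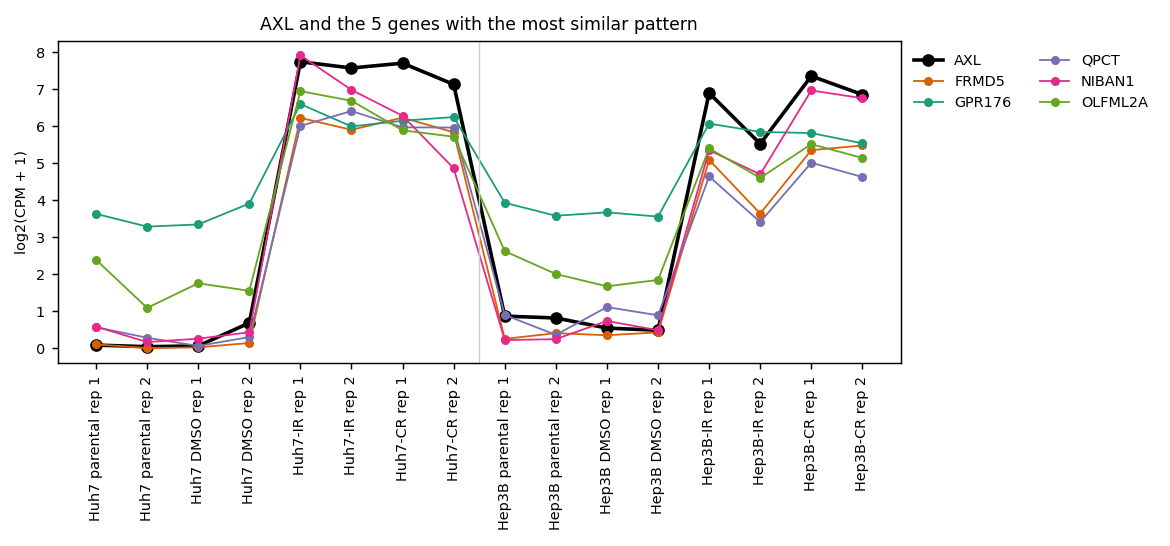
Levels of AXL (black) and of the 5 genes with the highest correlation to it, as log2(CPM + 1), in each of the 16 libraries, with lines drawn only to follow a gene across libraries. All 6 genes are higher in each of the 8 resistant libraries than in each of the 8 parental and DMSO libraries. This separation largely follows from how the genes were chosen and is no separate result.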

How the data were processed

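RNA was sequenced from 16 libraries, 2 in each of 8 groups. The authors aligned single-end reads to hg19 with STAR, kept uniquely mapped reads, counted them over RefSeq exons with QuasR and deposited one table of CPM for 26258 gene IDs, of which 26111 matched a symbol. Whether strand was used in counting is not given in the sources used here. Division by the value of 1 read gave whole reads (tolerance 0.05) and so the depth, 46613302 to 76860251 reads per library.

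The 15019 genes that reached 1 CPM in 2 or more libraries entered a limma fit (version 3.58.1, R 4.3.3) of log2(CPM + 1), in one model of 8 groups with a variance trend. A gene was called at a Benjamini-Hochberg adjusted p under 0.05 and a log2 difference of at least 0.58. The count tests of edgeR 4.0.16 and DESeq2 1.42.0 on the recovered reads, other scalings, pseudocounts and filters, DMSO as reference and leaving out each library were alternatives. The fits were tested on simulated data. The members and lists were chosen with earlier results of these data known, so members have no test in resistant against parental cells. List genes were named where called the same way in all 4 resistant lines, or else for the largest change of the list in a comparison. One gene that this rule names is not reported here. Genes most like a member were the 5 (AXL) or 3 (others) with the highest Pearson correlation. Per-kilobase levels used the union of GENCODE exons. Replicate numbers were not used to pair the libraries. Correlations of deviations from group means ran from -0.22 to 0.44 and were above 0.1 in 13 of 28 pairs of groups. Some groups may thus share a replicate effect, which was not tested.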

Additional observations from a re-analysis of the deposited data

Results flagged for a closer look

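MERTK differed from parental cells in opposite directions in the lines: every resistant Huh7 library was below both Huh7 parental libraries, and every resistant Hep3B library was above both Hep3B parental libraries. The mean of the IR and CR differences was 4.09 higher on the log2 scale in Hep3B than in Huh7. This difference between the lines was not tested. Over all genes, 17.8% and 13.6% were called lower than in parental cells in Huh7-IR and Huh7-CR, and 15.7% and 20% higher in Hep3B-IR and Hep3B-CR. The share of all genes whose libraries separate in this way is not given here.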

How the results depend on the processing

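Of 296 alternative values for members in the tested comparisons, 269 kept their direction and their side of the threshold, 4 lost a call, 10 gained one and 13 changed sign. For the differences between lines, 139 of 144 did so, 4 gained a call, and 1 changed sign, PROS1 in IR against CR, at -0.030 to 0.52 without a library. Of 240 values in resistant against parental cells 35 moved by more than the replicate spread. The cause was not tested. In Huh7 DMSO, 726 genes were called, against 382 without a filter, 1833 in DESeq2, 29 in a model of 1 line, 0 in a limma model of the compared groups alone and 2171 at an unadjusted p under 0.05, with 148 to 3564 when a library was left out. In Hep3B DMSO, 237 were called, against 77 in edgeR, 544 in DESeq2, 516 in a model of 1 line, 2 in the groups alone, 1210 unadjusted, and 46 to 122 without a library. In Huh7-IR against CR, 2051 were called, against 194 in a model of 1 line, 0 in the groups alone, 3148 unadjusted, and 479 to 2878 without a library. Hep3B-IR against CR had 1764, against 2671 unadjusted and 665 to 1151 without a library. The DMSO difference between lines had 91 calls, against 35 in edgeR, 409 in DESeq2, 2 in the groups alone, 1497 unadjusted and 27 to 1024 without a library, and the IR against CR difference had 3828, against 2071 to 4590. Calls of AXL are given as a description, since AXL entered the fit only through the resistant cells. AXL in Hep3B against Huh7 parental cells passed with a pseudocount of 0.25 (1.83), quantile normalization (0.92), edgeR (4.09), DESeq2 (4.16) and the groups alone (0.78). AXL in Huh7 DMSO passed in DESeq2 (2.86) and was -0.0014 to 0.62 without a library, and AXL in Hep3B-IR against CR passed unadjusted (-0.89) and was -1.58 to -0.21 without a library. TYRO3 in Hep3B-IR against CR changed sign with TMM factors (0.048), edgeR (0.049), quantile normalization (0.032) and DESeq2 (0.053), and was -0.076 to 0.063 without a library. Leaving out a library gave TYRO3 -0.27 to 0.17 in Huh7 DMSO (0.08 without the 1st parental library), 0.21 to 0.80 in Huh7-IR against CR and 0.57 to 0.83 between parental lines. It gave MERTK -0.0066 to 0.33 in Hep3B DMSO, -0.21 to 1.22 in Huh7-IR against CR and -1.37 to -1.03 between parental lines, and in Huh7-IR against CR it gave AXL -0.046 to 0.53 and PROS1 -0.058 to 0.49. Against parental cells, AXL for IR and CR of Huh7 and then of Hep3B was 9.43, 9.19, 6.14 and 7.04 with a pseudocount of 0.25, 5.67, 5.43, 4.02 and 4.88 with 4, 11.98, 11.86, 6.62 and 7.34 in edgeR, and 12.02, 11.93, 6.61 and 7.32 in DESeq2. MERTK with a pseudocount of 4 was -1.09 and -1.45 for Huh7 and 2.17 for Hep3B-CR, and in Huh7-CR it was -2.42 in edgeR and -2.41 in DESeq2. With DMSO as reference PROS1 was -0.76, -0.98, 0.079 and -0.38, and TYRO3 0.27 (IR) and 0.28 (CR) for Hep3B. Without a library, TYRO3 was -0.16 to 0.43 and MERTK -2.21 to -0.78 in Huh7-IR, PROS1 -0.71 to -0.17 in Huh7-CR and AXL 4.69 to 6.06 in Hep3B-IR.

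With the replicate numbers as a block, 846 genes were called in Huh7 DMSO and 294 in Hep3B DMSO. There were 2076 in Huh7-IR against CR, 1827 in Hep3B-IR against CR and 6401 between parental lines, and no member's call changed. With the numbers crossed, chosen after seeing the data, 830 and 249 were called in the DMSO comparisons of Huh7 and Hep3B and 7387 in Huh7-IR against parental cells. Depth limited GAS6, with 61 reads in all, and AXL in Huh7 parental cells, with 6.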
